A study of Homo sapiens with 12 samples.

Results

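H1-dKO neural progenitor cells (NPCs) were compared with wild-type (WT) NPCs at passage 4 over the 13454 genes whose raw counts averaged at least 20 across the 12 samples of the study, out of 58302 Ensembl genes counted. The comparison rests on 4 of those 12 samples, 2 of WT NPCs and 2 of dKO NPCs labelled as passage 4. H1 is an established human embryonic stem cell line, and WT and dKO cells share that background. The dKO genotype lacks both UTX (KDM6A) and JMJD3 (KDM6B), whose catalytic domains were deleted one after the other by CRISPR with drug-selected clones, and the sources used here do not say how many clones entered the libraries. All NPCs were induced by dual SMAD inhibition with SB431542 and dorsomorphin, picked as rosettes and passaged as neural spheres with bFGF and EGF. The labels name the line, the genotype, the passage and a replicate number, but do not say whether the replicates were separate cultures, so p-values measure the spread between these samples, which may be technical. The other 8 samples of the study shared the fit, and 4 of them, WT and dKO NPCs that the study's text places at passage 2, are used below for a comparison of passages. The remaining 4 were WT and dKO cells differentiated for 28 days without bFGF and EGF. They entered the count filter, the normalization and the shared estimate of spread.

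UTX and JMJD3 remove methyl groups from lysine 27 of histone H3, the mark that Polycomb repressive complex 2 (PRC2) deposits on silent developmental genes. Cortical NPCs divide as neuroepithelial cells and later as radial glia, and give rise to neurons through a series of basic helix-loop-helix (bHLH) proneural factors and EOMES-positive intermediate progenitors. Early neuroepithelium is known for LIN28 proteins, HMGA2 and IGF2BP1, which decline as development proceeds, while radial glia gain FABP7, SLC1A3 and HOPX.

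The 4 libraries held 3174410 and 4220037 counts in WT NPCs and 4112119 and 3922877 counts in dKO NPCs. Replicates correlated at a Pearson's r of 0.985 across genes in WT NPCs and 0.988 in dKO NPCs on the log2(CPM + 1) scale, where CPM is the count scaled to a library of 1e6 reads after TMM. Neither pair looked like 1 library deposited as 2, since a chi-square of their counts divided by its degrees of freedom was 2.84 and 2.23. The dKO day 28 pair, which shared the fit, had the highest such value of all groups, 14.1. In WT NPCs 22159 and 22894 genes had a count, against 24518 and 24289 in dKO NPCs, and the TMM factors were 0.954 and 0.934 against 1.05 and 1.06. Mitochondrial genes took between 3.7% and 4.37% of the counts. The deletions remove part of each transcript, and both targeted genes kept reads. KDM6A had 50.4 and 53.9 CPM in WT NPCs and 31.9 and 27.7 CPM in dKO NPCs (log2 fold change -0.81 ± 0.22 SE), and KDM6B had 117 and 127 against 188 and 184 CPM (0.61 ± 0.11). Neither difference exceeded 2-fold, and a count per gene does not test a deletion within it.

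The defining markers of several other lineages were at or near 0. POU5F1 and NANOG, the core pluripotency factors, had 0 reads in the 4 libraries, TBXT and MYOD1 of mesoderm and SOX17 of endoderm had at most 1 read in any of them, and AIF1 of microglia had 0. None of the 10 mesoderm and muscle, 10 endoderm and liver or 10 microglia markers reached the minimum of 20 counts. Markers of other kinds moved with the genotype. By the rule given below, 11% of all tested genes were higher and 11.1% lower in dKO NPCs. Summed levels in this paragraph cover the tested markers of a list only. Of 9 pluripotent cell markers 3 were tested, L1TD1, LIN28A and DNMT3B (the last named after its value was seen), and these 3 were higher in dKO NPCs. Their summed level was 17.7 to 18.7 CPM in WT NPCs and 75.9 to 78.2 CPM in dKO NPCs. Most of the WT sum came from DNMT3B, since L1TD1 had no read there and LIN28A few. Of 10 epithelial and placode markers 8 were tested and 6 of them were higher in dKO NPCs, and their summed level was 25.2 to 28.7 CPM in WT NPCs and 542 to 562 CPM in dKO NPCs. Of 10 endothelial and blood markers 2 were tested and both were higher, with a summed level of 3.67 to 7.71 CPM against 114 to 121 CPM, while PECAM1 had 0 reads in WT NPCs and 13 and 11 in dKO NPCs, and CDH5 had 0 and then 1 and 1. Of 10 choroid plexus markers 5 were tested and 4 were higher (2 by DESeq2 and 3 after the GC content and gene length correction), with a summed level of 52.4 to 54.4 CPM against 182 to 191 CPM, and TTR, its defining transcript, had at most 3 reads in any library. Of 11 Schwann cell and melanocyte markers 6 were tested, 1 was higher and 2 were lower, with a summed level of 127 to 132 CPM against 60.4 to 62.5 CPM. The part that such cells have in the results below was not tested.

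Gene expression differed widely between the 2 genotypes at passage 4. A gene was called when its Benjamini-Hochberg adjusted p was below 0.05 in edgeR's quasi-likelihood test and its change exceeded 2-fold, and "rose", "fell" and "changed" are used below for called genes only. By this rule 1476 genes (11%) rose and 1490 (11.1%) fell in dKO NPCs. These shares over all tested genes are the background for each count of list members below. Of the risen genes 494 exceeded 4-fold and 72 exceeded 16-fold, and of the fallen genes 630 exceeded 4-fold and 128 exceeded 16-fold. The median log2 fold change was 1.56 among risen genes and -1.77 among fallen genes, and 0.02 over the genes tested. The samples of the 2 genotypes overlapped in 1 of the 1476 risen and 0 of the 1490 fallen genes, and over all tested genes both dKO samples lay above both WT samples in 39.9% and below them in 37.6%. With 2 samples against 2, an exact two-sided permutation test of a single gene cannot go below p = 0.333, so the calls rest on the spread that edgeR shares across genes and groups.

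**Figure D1:**
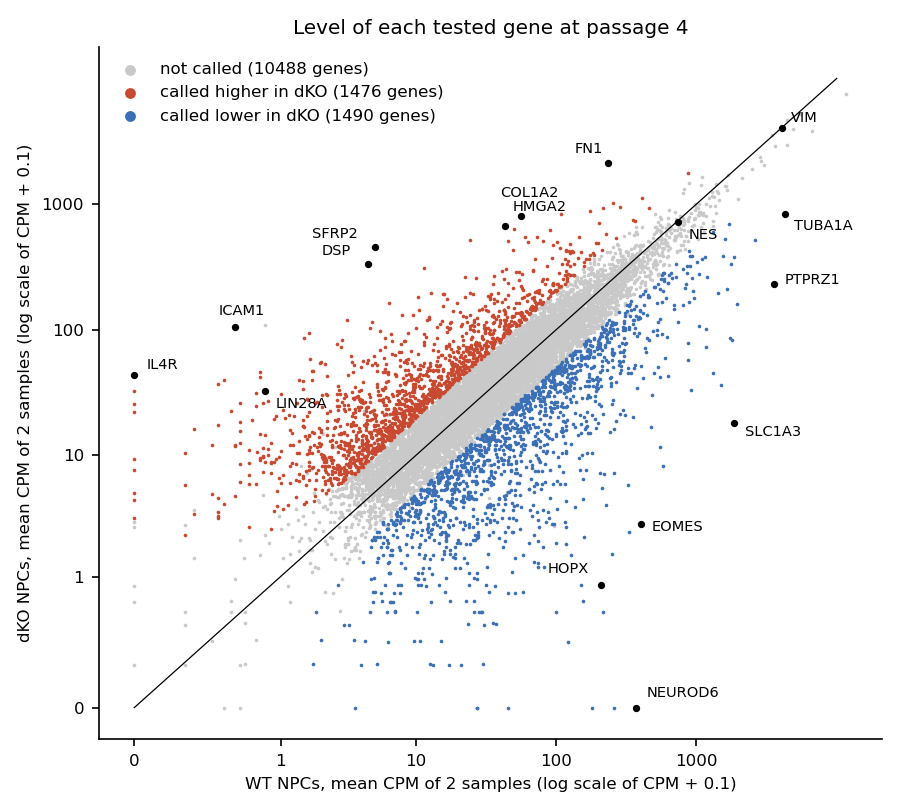
Mean level of each of the 13454 tested genes in WT NPCs (x axis) and dKO NPCs (y axis) at passage 4, in CPM plotted as the logarithm of CPM + 0.1. Red points are the 1476 genes called higher in dKO NPCs and blue points the 1490 called lower, grey points are not called, and the line marks equal levels. NEUROD6 lies at 0 CPM in dKO NPCs, IL4R at 0 CPM in WT NPCs, and VIM and NES lie on the line.

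The factors that commit cortical progenitors to neurogenesis fell nearly without exception. Of 22 proneural and intermediate progenitor genes, 14 reached the count minimum, 13 fell and 0 rose, against 11.1% of all tested genes that fell, and the median log2 fold change was -4.78. NEUROG2, the bHLH factor that starts excitatory neurogenesis in the cortex, had 163 and 152 CPM in WT NPCs and 0.234 and 0.981 CPM in dKO NPCs (log2 fold change -7.96 ± 0.37 SE, adjusted p = 1.7e-10 by edgeR). EOMES, the T-box factor of intermediate progenitors, had 402 and 413 against 2.81 and 2.7 CPM (-7.19 ± 0.17, adjusted p = 1.2e-13). NEUROD2 and NEUROD6, bHLH factors of young cortical projection neurons, had 267 and 256 CPM and 365 and 379 CPM in WT NPCs, and no read in either dKO library. Against a floor of 3 reads over the dKO group, NEUROD2 was at least 725-fold lower and NEUROD6 at least 1037-fold lower. In these genes the 2 WT samples lay close together and far above both dKO samples. BHLHE22, a further bHLH factor of projection neurons, had 118 and 128 CPM against 0.468 and 0 CPM, the latter from 2 reads in all, a WT to dKO ratio of 515-fold (95% interval 142 to 4260.2). NEUROG1, the paralogue of NEUROG2, had 24.7 and 27.5 against 0.703 and 1.23 CPM (-4.72 ± 0.39). The tested member that was not called was BTG2, an antiproliferative gene named here after its value was seen. A pair of list members under the count minimum lay in the same order, NEUROD1 with 66 and 85 reads in WT NPCs against 1 and 4 in dKO NPCs, and NEUROD4 with 38 and 42 reads against 0 and 0. Since these are bulk samples, fewer cells of a type and less RNA per cell cannot be told apart here or in the results below.

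The promoters of NEUROD2 and NEUROD6 are shown because both genes were without a read in dKO NPCs and because bHLH factors bind E-boxes. The 250 bases before each RefSeq start (GRCh38.p14, minus strand, printed 5′ to 3′ along the gene) are chr17:39607921-39608170 for NEUROD2 and chr7:31340727-31340976 for NEUROD6, and capitals mark the E-box word CAGATG or its reverse complement CATCTG.
NEUROD2: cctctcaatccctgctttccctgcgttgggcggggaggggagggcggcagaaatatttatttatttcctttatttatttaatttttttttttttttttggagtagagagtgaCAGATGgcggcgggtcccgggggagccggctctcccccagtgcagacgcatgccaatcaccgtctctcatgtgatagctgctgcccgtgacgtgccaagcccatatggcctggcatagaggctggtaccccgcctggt
NEUROD6: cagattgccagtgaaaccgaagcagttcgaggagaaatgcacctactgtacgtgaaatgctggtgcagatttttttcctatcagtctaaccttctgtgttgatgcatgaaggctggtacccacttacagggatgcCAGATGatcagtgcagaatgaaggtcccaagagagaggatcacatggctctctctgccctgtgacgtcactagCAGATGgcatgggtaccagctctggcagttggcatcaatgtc
NEUROD2 holds 1 such word, 138 bases before the start, and NEUROD6 holds 2, at 115 and 42 bases. Of all 27305 RefSeq promoter windows of this length 12.2% hold the word. Over tested genes with a promoter entry 7.75% of 10106 hold it, as do 9.71% of 1050 risen genes, 10.1% of 1077 fallen genes, and 3 of the 10 proneural list members with a promoter entry. These are matches of letters and not binding sites. The NEUROD6 window holds 4 CpG dinucleotides and the NEUROD2 window 12. Windows with under 5 CpG made up 13.9% of fallen genes and 9.43% of risen genes, against 6.73% of tested genes and 35% of all windows.

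Genes of neurons also fell. Of 38 tested pan-neuronal and cytoskeletal genes 30 fell and 0 rose (median log2 fold change -2.26), and of 23 tested cortical excitatory neuron genes 14 fell and 3 rose (-2.42). DCX, the microtubule protein of migrating neurons, had 1057 and 1286 CPM in WT NPCs and 69.8 and 76.5 CPM in dKO NPCs (-4.0 ± 0.28 SE, adjusted p = 3.1e-06 by edgeR). MAP2, the dendritic microtubule protein, had 1645 and 1894 against 325 and 341 CPM (-2.41 ± 0.18). TUBA1A, the alpha-tubulin of young neurons, had 4661 and 3975 against 865 and 822 CPM (-2.36 ± 0.25). The fall of TUBA1A was -2.36 as fitted and -0.99 with GC content and gene length corrected for, where it was no longer called. TBR1, the T-box factor of deep-layer and earliest cortical neurons, had 246 and 268 against 30.7 and 24.8 CPM (-3.21 ± 0.19), and BCL11B, a factor of subcortical projection neurons, had 92.5 and 112 against 4.45 and 2.94 CPM (-4.78 ± 0.23). Both kept some reads in dKO NPCs, unlike NEUROD2 and NEUROD6. Not all neuronal genes behaved alike. STMN2, a growth-cone protein, fell, with 1026 and 1073 against 276 and 279 CPM (-1.92 ± 0.26), RELN, a secreted glycoprotein of the earliest cortical neurons, differed by less than 2-fold at 183 and 184 against 116 and 123 CPM, and NEFL, a neurofilament subunit, was not called at 64.5 and 70.1 against 149 and 145 CPM (adjusted p = 0.14). The SE of the NEFL estimate was wide (log2 fold change 1.12 ± 0.55). MAPT had at most 1 read in any of the 4 libraries, so no value is given for it.

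Receptors, channels and synaptic genes fell in most cases. Of 40 tested neurotransmitter receptors and ion channels 30 fell and 2 rose (median log2 fold change -2.66), and of 44 tested synaptic genes 24 fell and 4 rose (-1.26). The AMPA receptor subunits GRIA1 and GRIA2 had 619.7 and 640.04 CPM and 338 and 317 CPM in WT NPCs, and 45.2 and 41.7 CPM and 6.56 and 4.9 CPM in dKO NPCs. Their log2 fold changes were -3.86 ± 0.18 and -5.82 ± 0.6. GRIN2B, an NMDA receptor subunit, had 128 and 146 against 3.51 and 4.17 CPM (-5.15 ± 0.19), and KCNQ3, a subunit of the M-type potassium channel, had 209 and 249 against 2.81 and 5.15 CPM (-5.85 ± 0.22). KCNK1, a two-pore potassium channel, went the other way, from 1.0 and 1.03 to 10.8 and 11 CPM (3.38 ± 0.37). Of the vesicle machinery, SYP (synaptophysin) had 91.5 and 96.1 against 13.1 and 14 CPM (-2.79 ± 0.34), SNAP25 had 104 and 102 against 10.1 and 9.32 CPM (-3.4 ± 0.34) and CPLX2 (complexin) had 213 and 229 against 7.96 and 6.13 CPM (-4.96 ± 0.35). SNCB, beta-synuclein, had 20.04 and 21.8 CPM in WT NPCs and 1 read over both dKO libraries, a WT to dKO ratio of 176-fold (95% interval 31 to 6989). SHANK3, a postsynaptic scaffold, was among the 4 that rose, with 47.1 and 44.9 against 116 and 107 CPM (1.28 ± 0.14). Its change was 0.96 after the GC content and gene length correction and it was then not called. GABAergic genes were less uniform, with 6 of 15 tested members falling and 1 rising. DLX2, a homeobox factor of interneuron progenitors, had 18 and 22.1 against 2.34 and 1.72 CPM (-3.29 ± 0.41) and GAD2 had 14.7 and 17.2 against 3.28 and 3.68 CPM (-2.2 ± 0.41), while GAD1, the other GABA-synthesising enzyme, was not called at 9.69 and 9.76 against 10.5 and 13.2 CPM.

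Radial glial and astrocytic genes fell in dKO NPCs. Of 26 tested members 20 fell and 2 rose, with a median log2 fold change of -2.7. SLC1A3 (GLAST), the glutamate transporter of radial glia, had 1781 and 1946 CPM in WT NPCs and 16.4 and 19.9 CPM in dKO NPCs (-6.68 ± 0.19 SE, adjusted p = 2e-12 by edgeR). HOPX, a marker of outer radial glia, had 215 and 208 against 0.703 and 0.981 CPM (-7.92 ± 0.31). FABP7 (BLBP), a fatty acid binding protein of radial glia from the neural progenitor list, had 1884 and 1719.8 against 87.1 and 79.2 CPM (-4.44 ± 0.59), and PTPRZ1, a receptor phosphatase from that list, had 3392 and 3792 against 216 and 246 CPM (-3.96 ± 0.38). PTN, a secreted ligand of PTPRZ1, had 1753 and 1715 against 84.8 and 89 CPM (-4.32 ± 0.29), so receptor and ligand both fell. On the radial glial list, MLC1, an astroglial membrane protein, had 220.1 and 216 against 0.468 and 0.49 CPM (-8.74 ± 0.85), and FAM107A, a further outer radial glia marker, had 142 and 161 against 0.468 and 1.23 CPM (-7.45 ± 0.25). NFIA, the transcription factor that opens the gliogenic phase, had 147 and 213 against 7.96 and 13 CPM (-4.11 ± 0.26), and TNC, a matrix glycoprotein of outer radial glia on the progenitor and matrix lists, had 1159 and 1184 against 100.02 and 105 CPM (-3.51 ± 0.4). Both WT samples lay above both dKO samples in each of these genes. GJA1, a gap junction connexin, was 1 of the 2 that rose, with 93.5 and 87.6 against 604 and 643 CPM (2.78 ± 0.5). Of 15 oligodendrocyte lineage genes 6 were tested, 3 rose and 0 fell (0.95). The defining members lay the other way and were under the count minimum. OLIG1 had 7 and 9 reads in WT NPCs against 1 and 2 in dKO NPCs, and OLIG2 had 3 and 5 against 2 and 0.

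Core progenitor genes were divided. Of 22 tested neural progenitor genes 7 fell and 4 rose (median log2 fold change -0.14), and 5 of the 7 that fell, FABP7, SLC1A3, PTPRZ1, HOPX and TNC, were given above. VIM and NES, the intermediate filaments vimentin and nestin, had 4105 and 4079.6 against 4032 and 3986 CPM and 713 and 775 against 703 and 736 CPM, with log2 fold changes of -0.03 ± 0.13 and -0.05 ± 0.09 that were smaller than their SE. PAX6, the paired-box factor of forebrain progenitors, was not called (248 and 261 against 222 and 212 CPM, -0.23 ± 0.23), nor was SOX1 at 79.8 and 86.3 against 49.9 and 45.6 CPM (-0.8 ± 0.12), although its adjusted p by edgeR was 3e-05. The sign of the difference in PAX6 and NES turned when GC content and gene length were corrected for. SOX2, the pan-neural SOXB1 factor, fell just past 2-fold, from 491 and 515 to 223 and 218 CPM (-1.19 ± 0.11). NR2E1 (TLX), a nuclear receptor of neural stem cells, fell from 91.9 and 95 to 2.81 and 2.7 CPM (-5.07 ± 0.22). PROM1, which encodes the CD133 antigen, rose from 25.1 and 30.3 to 94.4 and 103 CPM (1.82 ± 0.18).

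Regional identity genes divided into those that fell and those that rose. Of 21 tested forebrain patterning factors 9 fell and 6 rose (median log2 fold change -0.46). LHX2, a LIM homeobox factor of the cortex, fell from 338 and 346 to 156 and 134 CPM (-1.24 ± 0.15 SE, adjusted p = 4.7e-06 by edgeR), and EMX1, a homeobox factor of dorsal telencephalon, fell from 101 and 93.7 to 2.34 and 3.19 CPM (-5.13 ± 0.31). EMX2, its paralogue, was not called at 136 and 148 against 172 and 163 CPM. OTX2, SIX3 and FEZF1, homeobox and zinc-finger factors of the early anterior neural plate, rose from 36.7 and 34.9 to 130.2 and 131 CPM, from 12.7 and 11 to 48.5 and 39 CPM and from 17.4 and 15.4 to 74 and 69.2 CPM, with log2 fold changes of 1.87 ± 0.16, 1.89 ± 0.22 and 2.13 ± 0.19. NKX2-1, a factor of ventral forebrain and hypothalamus from the diencephalic list (4 of 7 tested members rose and 2 fell), fell from 23.4 and 22.1 to 0.468 and 0.736 CPM (-5.17 ± 0.43).

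Genes of the dorsal neural tube, roof plate and neural crest rose. Of 30 listed, 21 were tested, 13 rose and 1 fell, against 11% of tested genes that rose (median log2 fold change 1.68). PAX3, a paired-box factor of dorsal neural tube and crest, had no read in WT NPCs and 32.1 and 33.1 CPM in dKO NPCs, at least 74.8-fold higher against a floor of 3 reads over the WT group. Its adjusted p of 0.033 by edgeR was near the threshold, and the call was lost in 7 of 12 alternative fits, among them those without any 1 of the 4 samples, with the direction kept. PAX7, its paralogue, had 18 and 14.4 against 60.2 and 59.8 CPM (1.9 ± 0.2). MSX2, a homeobox gene that responds to BMP, had 2.0 and 1.03 against 88.5 and 85.3 CPM (5.87 ± 0.72), and GDF7, a BMP-family ligand of the roof plate, had 2.34 and 2.05 against 53.6 and 53.5 CPM (4.6 ± 0.68). LMX1A, a LIM homeobox factor of roof plate and midbrain floor plate, had 3.34 and 2.31 against 31.9 and 30.4 CPM (3.47 ± 0.4). In each of these genes both dKO samples lay above both WT samples. SNAI2, a zinc-finger factor of migrating crest, had 4.68 and 2.57 against 22.7 and 21.6 CPM (2.64 ± 0.35). FOXD3 and SOX10, which define migrating crest, had at most 3 reads in any library. WNT3A, a dorsal midline ligand under the count minimum, had 2 and 1 reads against 48 and 63, and TWIST1 had 2 and 0 against 14 and 15. More posterior genes were mostly too low to test. Of 48 midbrain, hindbrain and HOX genes 6 reached the minimum and 5 of those rose, and EN2, an engrailed factor of the midbrain to hindbrain boundary, had 0 and 3 reads in WT NPCs against 27 and 22 in dKO NPCs.

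Extracellular matrix genes rose in most cases. Of 28 tested collagens 20 rose and 1 fell (median log2 fold change 1.65), of 33 other matrix and mesenchymal genes 21 rose and 2 fell (1.39), and of 26 integrins and laminins 16 rose and 4 fell (1.2). FN1, the adhesive glycoprotein fibronectin, had 216 and 252 CPM in WT NPCs and 2089.6 and 2154 CPM in dKO NPCs (3.18 ± 0.2 SE, adjusted p = 1.4e-07 by edgeR). COL1A1 and COL1A2, the chains of type I collagen, had 21 and 28 CPM and 56.1 and 56.2 CPM in WT NPCs, and 512 and 526 CPM and 806 and 803 CPM in dKO NPCs (4.39 ± 0.5 and 3.84 ± 0.19). COL2A1, a fibrillar collagen of cartilage and early neuroepithelium, had 47.8 and 52.4 against 631 and 647 CPM (3.67 ± 0.14). Both chains of type I collagen rose together. Among the receptors, ITGA5, the fibronectin receptor subunit, had 6.35 and 10.02 against 81.5 and 81.7 CPM (3.28 ± 0.21), and ITGA1, a collagen receptor subunit, had 2.0 and 4.37 against 109 and 132 CPM (5.17 ± 0.29). ITGB1, the beta chain that pairs with both, was at the fold threshold with 339.7 and 397 against 698 and 777 CPM (1.0 ± 0.17), as was SPARC, a collagen-binding matrix protein, with 903 and 859 against 1838 and 1737 CPM (1.02 ± 0.13). Each of these last calls was lost in 7 of 12 alternative fits without a change of sign, that of ITGB1 among others without WT replicate 1 or dKO replicate 2 and that of SPARC without WT replicate 2 or dKO replicate 1. The value of SPARC was 0.48 after the GC content and gene length correction. ITGB8, the subunit of neuroepithelial and glial cells that activates latent TGF-beta, fell from 167 and 221 to 32.8 and 37.5 CPM (-2.47 ± 0.17). DCN, a fibroblast proteoglycan under the count minimum, had 17 and 14 reads in WT NPCs against 6 and 2 in dKO NPCs. POSTN, another lead matrix gene under the minimum, lay in the opposite order, with 23 and 39 reads in WT NPCs against 56 and 55 in dKO NPCs.

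Actomyosin genes and targets of the transcriptional co-activator YAP rose too. Of 30 tested members 20 rose and 1 fell (median log2 fold change 1.72). CCN1 and CCN2, secreted matricellular proteins known as YAP targets, had 35.7 and 37 CPM and 27.1 and 24.4 CPM in WT NPCs against 130.00 and 126 CPM and 191 and 194 CPM in dKO NPCs (1.81 ± 0.21 and 2.91 ± 0.31). ANKRD1, a further target, had 0.668 and 0 CPM in WT NPCs, from 2 reads in all, and 43.3 and 37 CPM in dKO NPCs, a dKO to WT ratio of 139-fold (95% interval 38.1 to 1149). TAGLN, an actin-binding protein of contractile cells, had 16.7 and 14.9 against 205 and 184 CPM (3.63 ± 0.43). LGALS1, a galectin, was the member that fell, from 89.9 and 70.4 to 8.2 and 6.87 CPM (-3.4 ± 0.22).

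The promoters of CCN2 and ANKRD1 are shown because YAP acts through TEAD factors, whose core word is CATTCC. The windows are the 250 bases before each RefSeq start (GRCh38.p14, minus strand, printed 5′ to 3′ along the gene), chr6:131951373-131951622 for CCN2 and chr10:90921088-90921337 for ANKRD1, and capitals mark CATTCC or its reverse complement GGAATG.
CCN2: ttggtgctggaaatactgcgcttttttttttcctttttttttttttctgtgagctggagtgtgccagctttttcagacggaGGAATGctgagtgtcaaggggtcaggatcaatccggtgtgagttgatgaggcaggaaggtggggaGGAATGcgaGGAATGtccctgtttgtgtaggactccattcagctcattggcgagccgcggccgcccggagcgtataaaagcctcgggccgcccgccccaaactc
ANKRD1: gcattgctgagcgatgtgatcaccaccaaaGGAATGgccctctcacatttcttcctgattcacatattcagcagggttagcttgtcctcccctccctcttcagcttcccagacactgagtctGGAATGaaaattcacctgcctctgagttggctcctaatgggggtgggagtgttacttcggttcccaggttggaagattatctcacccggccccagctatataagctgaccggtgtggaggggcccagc
CCN2 holds 3 such words, 169, 104 and 95 bases before the start, and ANKRD1 holds 2, at 220 and 128 bases. The word stood in 11.9% of all 27305 windows, in 6 of the 25 members of the actomyosin and YAP list with a promoter entry, in 10.9% of risen genes, in 8.36% of fallen genes and in 9.26% of tested genes. The word TGACTCA or TGAGTCA, to which AP-1 binds, stood in 4.19% of risen, 2.32% of fallen and 2.2% of tested genes and in 4.16% of all windows. Neither share was tested, and a match of letters is not a binding site.

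Single genes that rose included some named for the size of their rise and some from the marker lists of other cell types. DSP, the desmosomal plaque protein desmoplakin, had 3.34 and 5.65 CPM in WT NPCs and 327 and 346 CPM in dKO NPCs (6.18 ± 0.57 SE), and KRT8, a keratin of simple epithelia, had 11.4 and 11.6 against 322 and 304 CPM (4.77 ± 0.44). EPCAM, the epithelial adhesion molecule, rose from 1.67 and 2.31 to 11.2 and 12.5 CPM (2.53 ± 0.35). KDR, a VEGF receptor, had 2.0 and 3.85 against 80.6 and 86.8 CPM (4.77 ± 0.24), and CLIC6, a choroid plexus chloride channel protein, had 0.334 and 0.257 against 16.6 and 18.6 CPM, the former from 2 reads in all, a dKO to WT ratio of 60.6-fold (95% interval 16.5 to 505). ICAM1, an adhesion molecule induced by inflammatory signals, had 0.334 and 0.514 against 99.1 and 112 CPM from 3 reads in WT NPCs, a dKO to WT ratio of 242-fold (95% interval 82.6 to 1177). IL4R, a cytokine receptor chain, had no read in WT NPCs and 47.8 and 39.7 CPM in dKO NPCs, at least 101-fold higher. In both genes the dKO samples lay far above the WT samples, which were at or near 0. KRT8, EPCAM, KDR and CLIC6 belong to the marker lists of other cell types given above, and the part of such cells in these values was not tested.

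Signalling pathways differed in how far they moved. Of 27 tested BMP and TGF-beta genes 14 rose and 4 fell (median log2 fold change 1.05). Among ligands, BMP4 had 0.668 and 0.257 CPM in WT NPCs, from 3 reads in all, and 20.1 and 17.2 CPM in dKO NPCs, a dKO to WT ratio of 42.9-fold (95% interval 14.4 to 210.3). Among targets, the HLH inhibitors ID1 and ID3 rose, from 35.7 and 23.6 to 146 and 149 CPM (2.33 ± 0.29) and from 55.8 and 52.9 to 183 and 147 CPM (1.61 ± 0.42), whereas ID2 fell from 205 and 192 to 64.2 and 64.5 CPM (-1.62 ± 0.17). The call of ID3 was lost without WT replicate 1, WT replicate 2 or dKO replicate 1, and its value ran from 1.02 to 1.75 over the alternative fits.

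Of 66 Wnt genes 41 were tested, 22 rose and 6 fell (1.12). WNT7B, a ligand, rose from 40.1 and 47.3 to 172 and 181 CPM (2.01 ± 0.35). SFRP2, a secreted Wnt antagonist, rose from 3.67 and 6.42 to 444 and 476 CPM (6.46 ± 0.77, adjusted p = 0.00053 by edgeR). The receptor FZD8 fell from 247 and 251 to 39.6 and 44.4 CPM (-2.57 ± 0.19), and AXIN2, a negative feedback target of the pathway, rose from 20.04 and 18.2 to 51.8 and 56.2 CPM (1.5 ± 0.3). Members that rose were thus found among ligands, antagonists and targets.

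Of 31 tested FGF genes 11 rose and 6 fell (0.83). The feedback inhibitors SPRY4 and DUSP6 and the ETS factor ETV4, targets of FGF signalling, rose from 23.7 and 30.05 to 258 and 263 CPM, from 100.2 and 103 to 512 and 498 CPM and from 8.69 and 11.3 to 106 and 103 CPM, with log2 fold changes of 3.26 ± 0.52, 2.31 ± 0.19 and 3.37 ± 0.32. The receptors FGFR2 and FGFR3 fell, from 93.9 and 99.7 to 27.9 and 20.4 CPM (-2.0 ± 0.3) and from 78.5 and 73.2 to 31.9 and 30.4 CPM (-1.28 ± 0.24). These 3 targets and 2 receptors moved in opposite directions. Retinoic acid genes had 6 of 15 tested members rising and 0 falling (0.98), among them CRABP2, the binding protein that carries retinoic acid to its receptors, with 25.4 and 19.3 against 298 and 231 CPM (3.58 ± 0.17).

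Notch and Hedgehog genes had no prevailing direction. Of 22 tested Notch genes 4 rose and 4 fell (0.09), against 11% of all tested genes that rose and 11.1% that fell. The receptor NOTCH1 was not called at 349 and 359 against 379 and 377 CPM, and the sign of its small difference turned with the GC content and gene length correction. The ligand JAG1 rose from 53.4 and 51.1 to 283 and 300.4 CPM (2.48 ± 0.34), the atypical ligand DLK1 from 111 and 108 to 873 and 810.5 CPM (2.94 ± 0.13), and the ligand DLL3, a marker of newly committed neuronal precursors, fell from 84.5 and 82.2 to 9.6 and 7.6 CPM (-3.27 ± 0.25). DLL1 had 0 reads in the 4 libraries and HES5 at most 2, so neither gives a value. Of 15 tested Hedgehog genes 3 rose and 3 fell (0.15). SHH, the ligand, had 2.67 and 5.91 CPM in WT NPCs and 2 reads over both dKO libraries, a WT to dKO ratio of 18.8-fold (95% interval 4.78 to 162), and GLI1, its target under the count minimum, had 12 and 15 reads against 1 and 4.

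Axon guidance genes split as well, with 12 of 51 tested members rising and 17 falling (-0.2). SLIT3, a secreted repellent, rose from 12.4 and 13.4 to 208 and 188 CPM (3.94 ± 0.3), while its receptor ROBO2 fell from 354 and 402 to 28.1 and 41 CPM (-3.45 ± 0.25) and the ephrin receptor EPHA5 from 98.5 and 135 to 3.28 and 2.45 CPM (-5.33 ± 0.26). Of 53 clustered protocadherins, which give neurons surface identities, 25 were tested, 9 fell and 0 rose (-0.76), with PCDHGB4 at 105 and 134 against 18.5 and 13.5 CPM (-2.9 ± 0.38). Reads can be shared among the near-identical members of this cluster, so the value of a single one is uncertain.

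**Figure D2:**
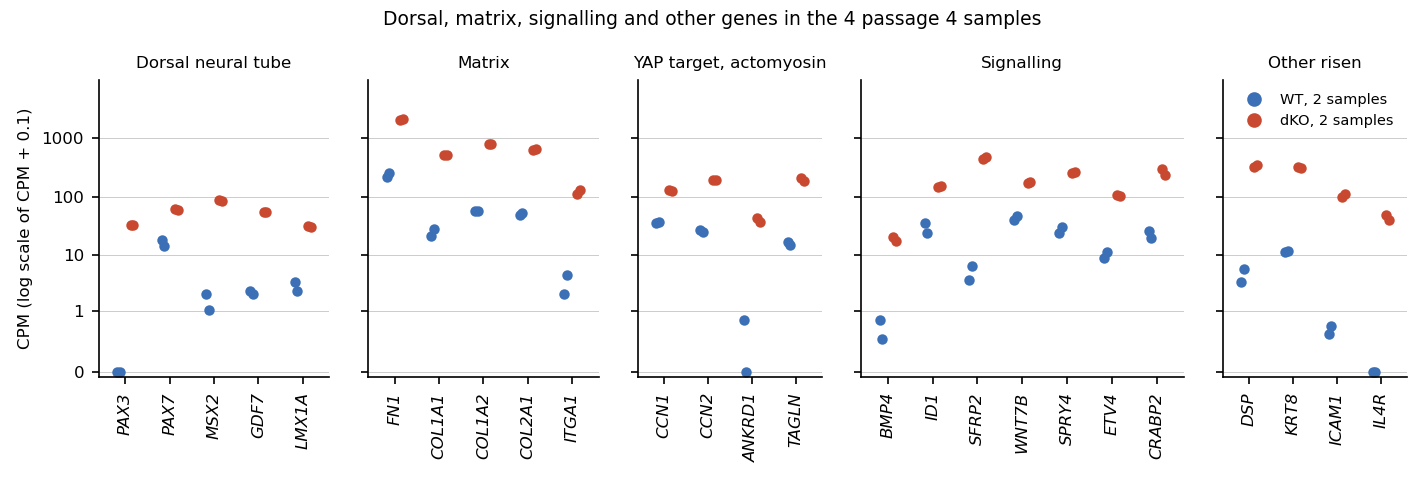
Level of 25 genes in each of the 4 passage 4 samples, in CPM plotted as the logarithm of CPM + 0.1, with WT samples in blue and dKO samples in red. The dKO points lie above the WT points in each panel, and PAX3 and IL4R are at 0 CPM in both WT samples.

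Genes of early neuroepithelium stood higher in dKO NPCs. Of 12 genes of the LIN28, HMGA and IGF2BP list 10 rose and 0 fell, with a median log2 fold change of 2.82. LIN28A and LIN28B, RNA-binding proteins that block maturation of let-7 microRNAs, had 1.0 and 0.514 CPM and 6.01 and 7.19 CPM in WT NPCs, and 31.4 and 33.8 CPM and 89.2 and 95.9 CPM in dKO NPCs (5.43 ± 0.68 and 3.79 ± 0.21 SE). HMGA2, an architectural chromatin protein of fetal stem cells and a let-7 target, had 38.8 and 47.5 against 641 and 706 CPM (3.96 ± 0.16, adjusted p = 3.6e-11 by edgeR), and IGF2BP1, an mRNA-binding protein, had 40.8 and 59.1 against 419.5 and 453 CPM (3.11 ± 0.25). IGF2, the imprinted fetal growth factor, had 1.0 and 2.31 against 92.3 and 96.4 CPM (5.74 ± 0.66). In each of these genes both dKO samples stood above both WT samples. L1TD1, an RNA-binding protein of pluripotent cells, had no read in WT NPCs and 7.73 and 7.6 CPM in dKO NPCs, at least 17.6-fold higher. Imprinted genes as a list did not share the direction of IGF2. Of 20 tested members 3 rose and 3 fell, near the 11% and 11.1% of all tested genes. NNAT, an imprinted proteolipid of developing neurons, fell from 1809.6 and 1524 to 234 and 194 CPM (-2.96 ± 0.26).

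Genes of cell death rose more often than they fell. Among caspases, BCL2 family members and death receptors 11 of 35 tested genes rose and 2 fell, with a median log2 fold change of 0.49. Over all tested genes 11% rose and 11.1% fell. The pro-apoptotic BCL2 family members BAX, PMAIP1 (NOXA) and BMF rose from 28.4 and 27.7 to 81.7 and 69.6 CPM, from 3.67 and 3.34 to 27.6 and 29.7 CPM and from 17.4 and 19.5 to 144 and 142 CPM, with log2 fold changes of 1.43 ± 0.16, 3.03 ± 0.25 and 2.94 ± 0.35. FAS, a death receptor, rose from 5.01 and 2.83 to 28.8 and 25.3 CPM (2.82 ± 0.31). TNFRSF10B, the TRAIL receptor, rose from 67.8 and 69.6 to 303 and 287 CPM (2.1 ± 0.12), and CFLAR, the inhibitor of caspase activation at such receptors, fell from 47.8 and 40.3 to 10.3 and 13.5 CPM (-1.88 ± 0.21).

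Cyclins and CDK inhibitors changed in both directions, with 4 of 27 tested members rising and 7 falling (-0.29). The shares over all tested genes were 11% and 11.1%. CDKN1A (p21), a CDK inhibitor, rose from 92.5 and 99.9 to 250.4 and 223 CPM (1.3 ± 0.12). CCND1 (cyclin D1) rose from 45.8 and 45.7 to 229 and 243 CPM (2.37 ± 0.15) while CCND2 fell from 178 and 243 to 84.3 and 97.1 CPM (-1.22 ± 0.14), a call that was lost without WT replicate 2 (-0.97). The INK4 inhibitors also diverged, CDKN2B (p15) rising from 3.01 and 3.85 to 55.5 and 56.9 CPM (4.0 ± 0.37) and CDKN2C (p18) falling from 50.4 and 47 to 2.81 and 1.96 CPM (-4.33 ± 0.26). CDKN2A, under the count minimum, had 16 and 21 reads in WT NPCs against 16 and 18 in dKO NPCs.

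Of 17 tested AP-1 and immediate early genes 9 rose and 0 fell (1.79). FOS, FOSB and FOSL2, partners in AP-1, had 45.8 and 40.1 CPM, 0.334 and 1.03 CPM and 6.68 and 10.8 CPM in WT NPCs, and 151 and 138 CPM, 52.9 and 39.5 CPM and 60.2 and 57.9 CPM in dKO NPCs (1.76 ± 0.28, 5.94 ± 0.6 and 2.72 ± 0.2 SE). ATF3, a stress-induced partner, had 5.34 and 4.37 against 119.7 and 110.1 CPM (4.57 ± 0.19, adjusted p = 5.5e-11 by edgeR). JUN was not called at 168 and 157 against 206 and 194 CPM, and the sign of its difference turned with the GC content and gene length correction. FOSL1, under the count minimum, had 0 and 2 reads in WT NPCs against 41 and 49 in dKO NPCs.

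Stress, metabolic and interferon genes included members in both directions, against 11% of all tested genes that rose and 11.1% that fell. Of 20 tested integrated stress response genes 4 rose and 2 fell (0.6), the latter near the share over tested genes. Of 23 tested cholesterol synthesis genes 10 fell and 0 rose (-0.94). HMGCS1, an enzyme of the early part of the pathway, had 846 and 823 against 199 and 229.8 CPM (-1.96 ± 0.57), and its call was lost when any 1 of the 4 samples was left out. Glycolysis and hypoxia genes had 3 of 30 tested members rising, near the share over tested genes, and 6 falling (-0.48). LDHA, lactate dehydrogenase A, fell from 128 and 135 to 45.2 and 46.1 CPM (-1.53 ± 0.2), while SLC2A1 (GLUT1), the glucose transporter, rose from 84.5 and 76.8 to 522 and 493 CPM (2.66 ± 0.11). Interferon response and MHC class I genes split into 5 that rose and 4 that fell of 17 tested. IFITM1, an antiviral membrane protein, rose from 13.7 and 9.25 to 89.2 and 70.9 CPM (2.82 ± 0.28), and IFI44L, an interferon-induced protein, fell from 69.2 and 70.9 to 6.09 and 5.15 CPM (-3.63 ± 0.77).

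Genes of chromatin complexes were called no more often than tested genes in general, of which 22.0% were called in either direction. Of 12 tested PRC2 and H3K27 demethylase genes 1 rose and 1 fell, and of 17 tested PRC1 subunits 0 rose and 0 fell by edgeR's test, as by DESeq2's, while 1 fell after the GC content and gene length correction. Of these PRC1 subunits 2 were higher and 4 lower at an adjusted p below 0.05 without the fold limit, against 25.3% and 24.3% of tested genes, and the same numbers held at an unadjusted p below 0.05. JARID2, an accessory subunit of PRC2, rose from 69.8 and 71.1 to 167 and 181 CPM (1.3 ± 0.13) and PHF19, another accessory subunit, fell from 51.1 and 52.4 to 23.2 and 19.9 CPM (-1.26 ± 0.15). Of 24 tested subunits of the BAF remodelling complex 1 rose and 3 fell. SMARCA2 (BRM), one of its ATPases, fell from 120.3 and 134 to 29.7 and 26.7 CPM (-2.17 ± 0.15), and so did ACTL6B and DPF1, subunits of the neuronal form of the complex, from 56.8 and 48.5 to 6.56 and 5.4 CPM (-3.13 ± 0.28) and from 49.1 and 42.4 to 6.56 and 3.68 CPM (-3.14 ± 0.29). DPF3, a further subunit under the count minimum, had 39 and 55 reads in WT NPCs against 16 and 10 in dKO NPCs.

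**Figure D3:**
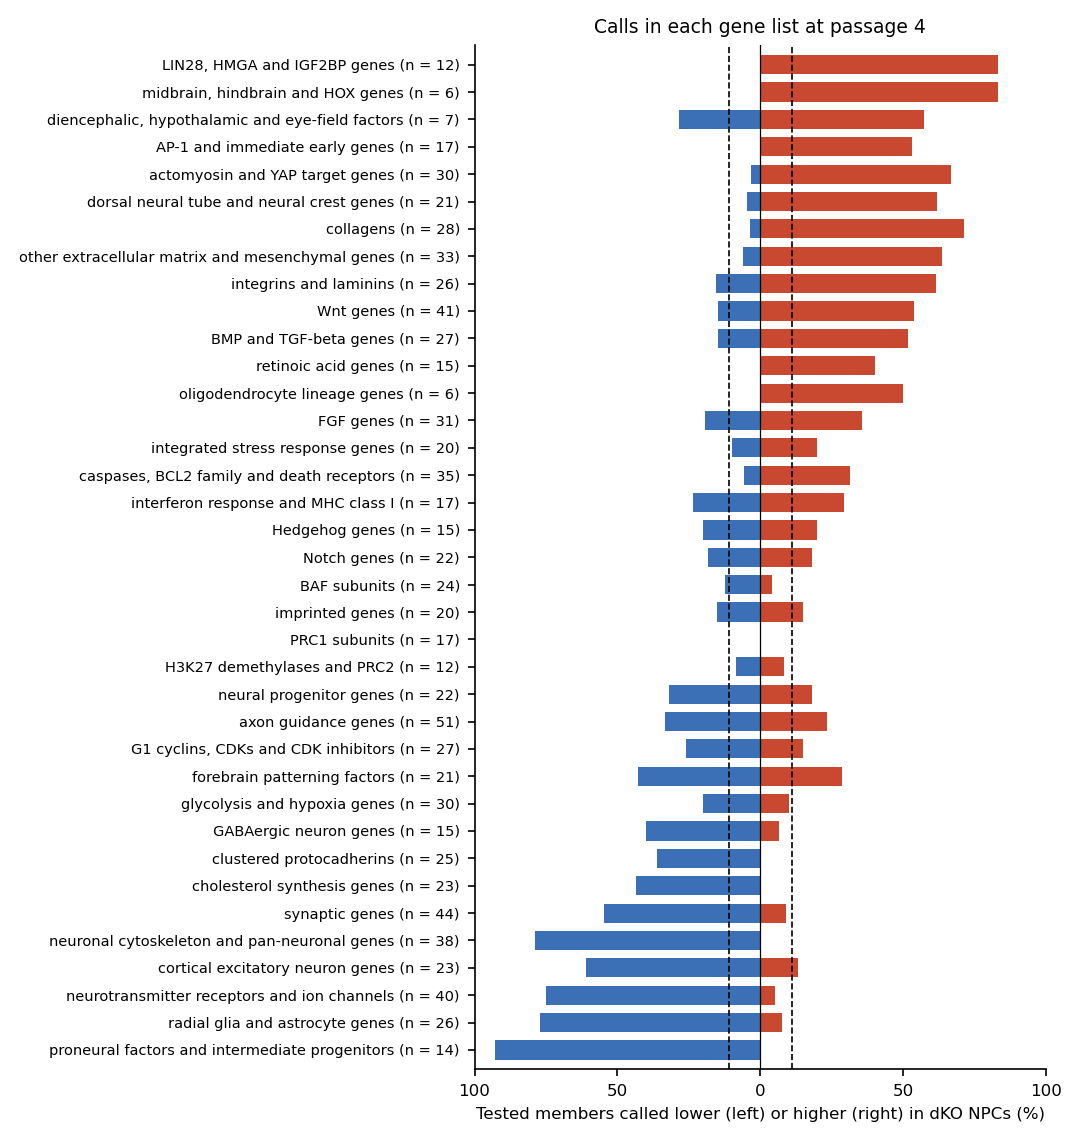
Share of the tested members of each gene list shown that were called lower (blue, left) or higher (red, right) in dKO NPCs at passage 4, in percent, ordered by the median log2 fold change of the list, with n the number tested. Dashed lines mark the shares over all 13454 tested genes, 11.1% lower and 11% higher. Proneural genes have 13 of 14 members lower at one end and LIN28, HMGA and IGF2BP genes 10 of 12 higher at the other.

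The same contrast had far fewer calls in NPCs at passage 2, where 132 genes (0.981%) were higher and 67 (0.498%) lower in dKO NPCs. Those 4 libraries were shallower, with 756942 to 1438807 counts each, so that 3 reads correspond to 2.12 to 3.92 CPM against 0.703 to 1.0 CPM at passage 4. The part of depth in the lower count was not tested. Of the 1476 genes that rose at passage 4, 81 (5.49%) were called higher at passage 2 as well, which is 61.4% of the passage 2 calls, and of the 1490 that fell 40 (2.68%) were called lower, 59.7% of the passage 2 calls. Of the risen genes 4 were called lower at passage 2, and of the fallen genes 3 were called higher. The difference between the 2 dKO effects was tested directly as a contrast of the same fit, at the same thresholds. It was positive for 1024 genes (7.61%) and negative for 1037 (7.71%). The passage and the library depth cannot be told apart in this contrast.

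Levels of genes with such a difference took several forms. In the first, the 2 genotypes had similar levels at passage 2 and WT NPCs alone were low at passage 4. LIN28B had 139.7 and 132 CPM in WT NPCs against 133 and 111 CPM in dKO NPCs at passage 2, and then 6.01 and 7.19 CPM in WT NPCs against 89.2 and 95.9 CPM in dKO NPCs at passage 4, a difference of effects of 3.94 on the log2 scale. HMGA2 had 394 and 393 CPM and 545 and 612 CPM at passage 2 (difference of effects 3.4), IGF2 had 102 and 114 CPM and 134 and 133 CPM (5.44), and CRABP2 had 221 and 248 CPM and 254 and 294 CPM (3.36). In the second form, WT NPCs alone were high at passage 4. EOMES had 1.31 and 1.49 CPM in WT NPCs against 1.5 and 1.41 CPM in dKO NPCs at passage 2, and its dKO level at passage 4 was still 2.81 and 2.7 CPM (-7.22). FABP7 had 129 and 111 CPM and 84.8 and 93.3 CPM at passage 2 against 87.1 and 79.2 CPM in dKO NPCs at passage 4 (-4.02), and PTN had 23.5 and 65.6 CPM and 99.8 and 114 CPM against 84.8 and 89 CPM (-5.46). NFIA had 1.31 and 3.73 CPM and 7.51 and 4.24 CPM at passage 2 (-5.14). NKX2-1 followed neither form, with 67.9 and 71.6 CPM in WT NPCs against 88.6 and 117 CPM in dKO NPCs at passage 2 and lower levels in both genotypes at passage 4 (-5.73). FOSB also followed neither, with 188 and 151 CPM in WT NPCs against 109 and 75.7 CPM in dKO NPCs at passage 2 and lower levels in both genotypes at passage 4 (6.8). In the LIN28, HMGA and IGF2BP list the difference was called positive for 10 of 12 genes, and in the radial glial and proneural lists it was called negative for 15 of 26 and 10 of 14. NEUROD2 and NEUROD6 had no read in the 4 passage 2 libraries, and their difference was not called.

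Other genes already differed at passage 2. SLC1A3 had 106 and 82.7 CPM in WT NPCs against 34.5 and 17.7 CPM in dKO NPCs at passage 2 and was called lower there, as was NR2E1 with 202 and 157 CPM against 67.6 and 53 CPM, and in both the gap was larger at passage 4 (-4.85 and -3.51). FGFR2 and FGFR3 were called lower at both passages, with 92.7 and 61.1 CPM against 24.8 and 7.78 CPM and 180.2 and 126 CPM against 75.1 and 41 CPM at passage 2, and the difference between passages was not called. FN1, COL1A2, ITGA1, ICAM1, CCN2, KDR and TAGLN were called higher at both passages. At passage 2, FN1 had 530.01 and 824 CPM in WT NPCs against 1405 and 1556 CPM in dKO NPCs and COL1A2 had 32.6 and 68.6 CPM against 161 and 219 CPM, with the 2 WT samples of COL1A2 differing by more than 2-fold. DUSP6 was also called higher at both, with 45.7 and 82.7 CPM against 207 and 238 CPM at passage 2. TNC had the opposite order at passage 2, 49.6 and 181 CPM in WT NPCs against 419 and 537 CPM in dKO NPCs, where it was not called, and its difference of effects was -5.46.

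**Figure D4:**
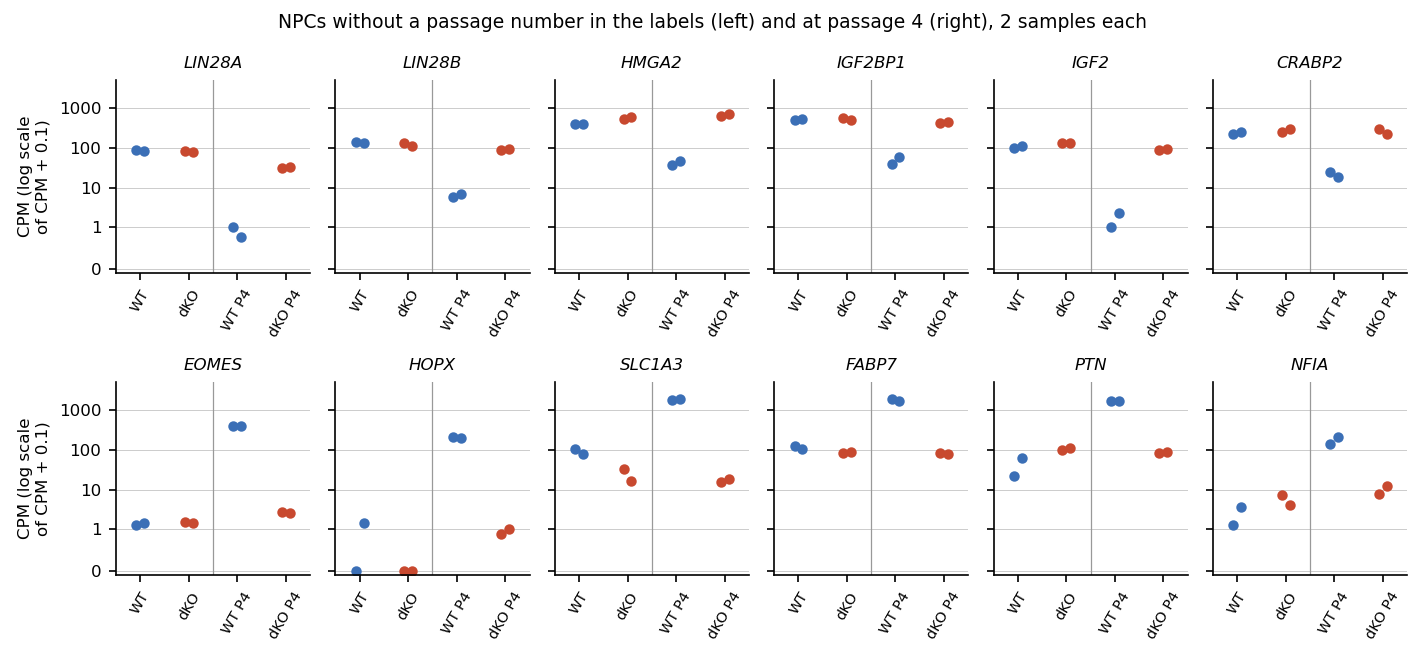
Level of 12 genes in WT (blue) and dKO (red) NPCs, 2 samples each, in CPM plotted as the logarithm of CPM + 0.1, with NPCs whose labels give no passage number (passage 2 in the study's text) left of the grey line and passage 4 right of it. In the upper row WT NPCs at passage 4 lie below the other 3 groups, and in the lower row they lie above them.

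Risen and fallen genes differed in gene structure. The median GC content of exons was 54.9% in genes that rose and 46.8% in genes that fell, against 47.7% over tested genes. The median genomic span was 24.9 kb and 64.9 kb against 32.9 kb. Gene length in the correction below is exonic length and not span, with medians of 5014 and 6393 bases against 5368. Chromosome medians of the log2 fold change ran from -0.17 on X to 0.19 on chromosome 16 among nuclear chromosomes. With GC content and gene length corrected for, the calls were 1352 genes higher and 1502 lower, of which 1134 and 1299 were also called without it. It left the counts of the proneural list (13 of 14 lower), the radial glial list (20 of 26 lower) and the actomyosin and YAP list (20 of 30 higher) as they were. Collagens had 18 of 28 higher under it. By annotated type, 10.9% of 11825 protein-coding genes rose and 11.1% fell, and 12.8% of 1092 long non-coding RNA genes rose and 11.3% fell.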

How the data were processed

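Total RNA of WT and dKO NPCs was sequenced from TruSeq libraries on an Illumina NextSeq instrument. The files deposited by the authors hold raw counts for each Ensembl gene, made, per the labels and the study's methods, with HISAT2 2.0.4 on hg38, SAMtools 1.3.1 and HTSeq 0.6.0. The annotation release and the strand setting of counting are not given in the sources used here. The authors' own tests used EDASeq and DESeq 1.18.1. The counts were used as deposited, without the EDASeq step.

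Genes with a mean raw count of at least 20 over the 12 samples were fitted with edgeR 4.0.16 (R 4.3.3, robust quasi-likelihood, TMM) as 6 group means. Both contrasts and their difference came from this fit. Genes were called at a Benjamini-Hochberg adjusted p below 0.05 and a change over 2-fold, and errors of log2 fold changes are SE. Levels are CPM on TMM library sizes and are not per length, so levels of different genes are not compared. The 4 passage 4 libraries held 3174410 to 4220037 counts, and 3 reads in a library correspond to 0.703 to 1.0 CPM. Against a group without reads a fold was computed from 3 reads over the group, and for 1 to 3 reads a ratio was given with an exact 95% interval, both covering counting error only. Fitted values of such genes depend on the prior count.

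The members and gene lists were chosen with earlier results of these data known. Named genes were KDM6A and KDM6B, the 8 largest rises and falls by fold among called protein-coding genes and by CPM among called genes, lead members of each list, and up to 3 called members of each list in each direction. Lists are described by counts and medians, with no test of the list. Gene types, GC content and length came from GENCODE v44 and promoter windows from RefSeq (GRCh38.p14). Some genes and 1 gene list are not reported here. Scripts were tested on simulated data. The alternatives were DESeq2 1.42.0, RLE factors, the 4 passage 4 samples alone, 2 other count filters, unadjusted p, a GC content and gene length correction over 10 bins each, the replicate block with and without it, and leaving out each sample.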

Additional observations from a re-analysis of the deposited data

Results flagged for a closer look

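For 95 of the named genes the dKO effect at passage 4 differed from the dKO effect in the NPCs at passage 2 by edgeR's test of the difference itself (Benjamini-Hochberg adjusted p below 0.05 and over 2-fold), against 7.61% of tested genes with a positive and 7.71% with a negative difference. Values below are the log2 effect at passage 4 minus that at passage 2. The passage 2 libraries were shallower, and depth and passage cannot be told apart. The genes were named for their result at passage 4, so their number is no support for a difference between passages.

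Among proneural genes the difference was NEUROG1 -5.67, NEUROG2 -8.31, EOMES -7.22 and BHLHE22 -8.47. Among neuronal genes it was TBR1 -2.82, BCL11B -3.73, DCX -3.07, MAP2 -2.39, STMN2 -1.85, TUBA1A -2.24 and MAP1B -2.26. Synaptic genes gave SYP -2.28, CPLX2 -4.03, SNCB -7.71 and SHANK3 1.61, and receptors and channels gave GRIA1 -4.03, GRIA2 -4.79, GRIN2B -5.50, KCNQ3 -5.53 and KCNK1 2.77. At passage 2 SNCB had 0 and 0.745 CPM in WT NPCs against 0.751 and 0.707 CPM in dKO NPCs. These levels are under 3 reads in each library, and the SE of its difference was 2.39. EOMES was likewise under 3 reads in each passage 2 library, so the size of both differences is uncertain. The GABAergic gene gave GAD1 2.22. It was called lower in dKO NPCs at passage 2, with 20.9 and 9.69 CPM in WT against 3.75 and 3.54 CPM in dKO, and was not called at passage 4.

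Progenitor and radial glial genes gave PROM1 1.87, FABP7 -4.02, NR2E1 -3.51, SLC1A3 -4.85, PTPRZ1 -3.12, NFIA -5.14, MLC1 -7.35, FAM107A -6.65, TNC -5.46 and PTN -5.46. Regional genes gave EMX1 -4.76, OTX2 1.81, SIX3 1.42, FEZF1 1.65, NKX2-1 -5.73 and SNAI2 1.95. Chromatin genes gave JARID2 1.37, PHF19 -1.11, SMARCA2 -2.45, ACTL6B -2.20 and DPF1 -2.52.

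In signalling the difference was BMP4 4.19, ID1 1.90 and ID2 -1.11 for BMP genes, SFRP2 7.19, AXIN2 1.78 and FZD8 -2.45 for Wnt genes, ETV4 2.37 for the FGF target, DLL3 -2.78, JAG1 1.61 and DLK1 2.09 for Notch genes, SHH -3.67 for the Hedgehog ligand and CRABP2 3.36 for the retinoic acid gene. Axon guidance genes and a protocadherin gave SLIT3 2.89, EPHA5 -5.72, ROBO2 -2.37 and PCDHGB4 -3.09.

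Matrix genes and integrins gave FN1 2.06, COL1A1 2.67, COL1A2 2.02, COL2A1 3.59, ITGA5 2.60, ITGA1 3.45 and ITGB8 -1.88, and actomyosin and YAP targets gave CCN1 1.86, CCN2 1.38, ANKRD1 5.22 and LGALS1 -4.43. Other risen genes gave ICAM1 5.56, IL4R 9.24, DSP 4.97, KRT8 3.08 and KDR 3.76. The value of IL4R, like that of L1TD1, rests on a WT group with no read at passage 4 and depends on the prior count.

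AP-1 genes gave FOS 2.58, FOSB 6.80, FOSL2 1.71 and ATF3 4.53. Early neuroepithelial genes gave LIN28A 5.46, LIN28B 3.94, HMGA2 3.40, IGF2BP1 3.08, IGF2 5.44 and L1TD1 8.30, and the imprinted gene gave NNAT -3.41. Cell cycle genes gave CCND1 2.29, CDKN2B 2.17 and CDKN2C -4.32, and death genes gave PMAIP1 2.55, BMF 2.47, TNFRSF10B 1.89 and CFLAR -2.25. Metabolic and interferon genes gave SLC2A1 2.29, LDHA -2.45 and IFITM1 3.44.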

How the results depend on the processing

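The counts of 1476 higher and 1490 lower genes and of 2061 genes with a difference between passages stayed within 1.5 times under each alternative run, and no gene called by both fits changed direction. Leaving out 1 sample gave 1343 to 1473 higher and 1382 to 1521 lower genes at passage 4, and 1731 to 1890 with a difference. DESeq2 gave 1373 higher and 1481 lower. Same-numbered samples at passage 4 deviated together with a correlation of 0.194, with only 2 pairs and no label that ties the numbers. Whether such samples share more than a number is not known. With the replicate block 1488 genes were higher and 1489 lower.

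Of 1642 values of 137 named genes under the alternatives, 1595 kept their direction and side of the threshold, 35 lost the call, 3 gained it and 9 changed sign. The latter were PAX6 at 0.0944 with the GC content and gene length correction and 0.0966 with the replicate block added, NES at 0.32 and 0.32, NOTCH1 at -0.59 and -0.60, JUN at -0.0854 and -0.0883, and NES between -0.108 and 0.0132 when 1 sample was left out. None of these was called. The median of 6 of 43 lists changed sign, those of PRC2, PRC1, BAF, Notch, Hedgehog and imprinted genes. The cause was not tested. With 2 samples a group and no label of separate cultures, the errors may be technical, and genes under 20 mean counts were given as reads only.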
